A study of Rattus norvegicus with 24 samples.

Results

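The enzymes that write, remove and read DNA methylation, histone acetylation and histone methylation were followed in 2 brain regions of rats whose fathers had self-administered morphine or saline. The genes were 47 of the 37403 identifiers in each of 2 tables, taken by symbol: 11 of DNA methylation, 23 of acetylation and 13 of histone methylation. All 47 were present in both tables and all passed the filter on low values in each fit. The groups were 5 MOR-sired and 5 SAL-sired libraries of the ventral tegmental area (VTA), and 7 MOR-sired and 7 SAL-sired libraries of the nucleus accumbens (NAC). MOR-sired offspring had a father that took morphine for 60 days, and SAL-sired offspring a father that took saline for as long. All were first-generation animals described as male and at least 60 days old, and RNA came from bilateral tissue punches. The labels name neither strain, litter nor animal. The p-values therefore measure the spread between these libraries, which may include littermates, and whether a NAC and a VTA library share an animal is unknown.

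DNA methyltransferases add a methyl group to cytosine, mostly where it precedes guanine (CpG), TET enzymes oxidise that group as a step towards its removal, and methyl-CpG readers bind it. Acetyltransferases loosen chromatin by acetylating histone tails, and histone deacetylases and the NAD-dependent sirtuins take the acetyl group off, while histone methyltransferases and demethylases set marks of active or silent chromatin. Several of these enzymes, among them the deacetylases and the methyltransferase G9a, have been studied in the NAC for their part in responses to addictive drugs.

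The libraries held 21.9 to 43.5 M estimated counts. Markers set the regions apart. The 8 dopamine neuron markers summed to 3480 to 7771 CPM (a gene's counts scaled to its library's total) in VTA libraries and to 22.2 to 28.0 CPM in NAC libraries. The 11 markers of striatal medium spiny neurons, the main neurons of the NAC, summed to 286 to 407 CPM in VTA. They spread widely in NAC, from 574 to 8370 CPM in MOR-sired and from 1707 to 6227 CPM in SAL-sired libraries, with MOR-sired NAC replicates 2 and 7 lowest in striatal score. Although the labels give males, 4 VTA libraries (MOR-sired 3, 4 and 5 and SAL-sired 5) had female-typical sex-linked transcripts, with Xist at 78.9 to 108 CPM and the Y-linked genes Ddx3y, Eif2s3y, Kdm5d and Uty summing to at most 0.432 CPM. In the other 20 libraries Xist was at most 0.245 CPM and the Y-linked sum at least 89.3 CPM. The 3 serotonin neuron markers, which belong to the neighbouring raphe, summed to 99.7 to 263 CPM in MOR-sired VTA and to 0.843 to 93.8 CPM in SAL-sired VTA, without overlap. In such bulk tissue, fewer cells of a type and less RNA per cell cannot be told apart.

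The enzymes covered a wide range of levels. Because the deposited values are scaled per transcript length, levels can be compared between genes, and they are given as CPM after TMM scaling. This scaling was done within each region, except for levels compared between VTA and NAC. Those were scaled over all 24 libraries together, so the same library can have slightly different values in the 2 settings. In VTA the most abundant was Sirt2, a cytoplasmic sirtuin that deacetylates tubulin and is known from oligodendrocytes, with a mean of 359 CPM over 10 libraries. Hdac11, the single class IV deacetylase, followed with 277 CPM, and Mbd3, a subunit of the NuRD repressor complex, with 128 CPM. In NAC Hdac11 led with a mean of 286 CPM over 14 libraries, ahead of Sirt2 with 268 CPM and Mbd3 with 181 CPM. The de novo methyltransferase Dnmt3b was lowest in both, with means of 1.20 CPM in VTA and 0.759 CPM in NAC. Its relative Dnmt3a stood at 14.4 CPM in VTA and 20.5 CPM in NAC, and the maintenance enzyme Dnmt1 at 12.3 CPM in VTA and 19.1 CPM in NAC. Among the TET enzymes Tet2 led in VTA with 8.58 CPM, ahead of Tet3 with 5.48 CPM and Tet1 with 3.94 CPM. In NAC Tet3 led with 9.26 CPM, ahead of Tet2 with 8.58 CPM and Tet1 with 2.30 CPM. Libraries of a region differed little for most enzymes. The coefficient of variation over libraries had a median of 8.38% in VTA, from 3.06% for the demethylase Kdm4a to 17.3% for Uhrf1. In NAC its median was 9.97%, from 2.87% for the demethylase Kdm1a to 32.8% for the class IIa deacetylase Hdac9.

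The enzymes differed in level between VTA and NAC, more often lower than higher in VTA. By edgeR's quasi-likelihood test over all 24 libraries, 36 of the 47 had an adjusted p under 0.05, of which 7 were higher and 29 lower in VTA, and the same number had an unadjusted p under 0.05, against 71% of all genes. Among all 20603 genes tested, 69% were called, 34.3% higher and 34.7% lower, so the share of enzymes called (76.6%) was near that of all genes while their split between directions was 14.9% higher and 61.7% lower. The median log2 fold change, VTA over NAC, was −0.30 over the 47 enzymes and 0.02 over all genes, and 12 of the 47 were positive, against 51.5% of all genes. Most differences were small: 3 enzymes were called and at least 2-fold apart (Uhrf1, Suv39h2 and Kat2b), against 20.7% of all genes. In 18 of the 47 (38.3%) no VTA library overlapped any NAC library, against 27.7% of all genes, with 3 higher (Tet1, Sirt2 and Kat2b) and 15 lower in VTA. Upper-quartile scaling, which puts the median of all genes at 0.15, gave 12 enzymes higher and 25 lower in VTA. The 4 female-typical libraries are all of VTA. Without them the median was −0.35 over the 47 enzymes and −0.0081 over all genes, and 10 of the 47 were positive. The regions stand in separate tables with separate library numbers, so region and handling cannot be told apart. They also differ in cell types: the 7 oligodendrocyte markers summed to 24049 to 35086 CPM in VTA and 8206 to 11774 CPM in NAC, and the part of cell types in these differences was not tested.

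**Figure D1:**
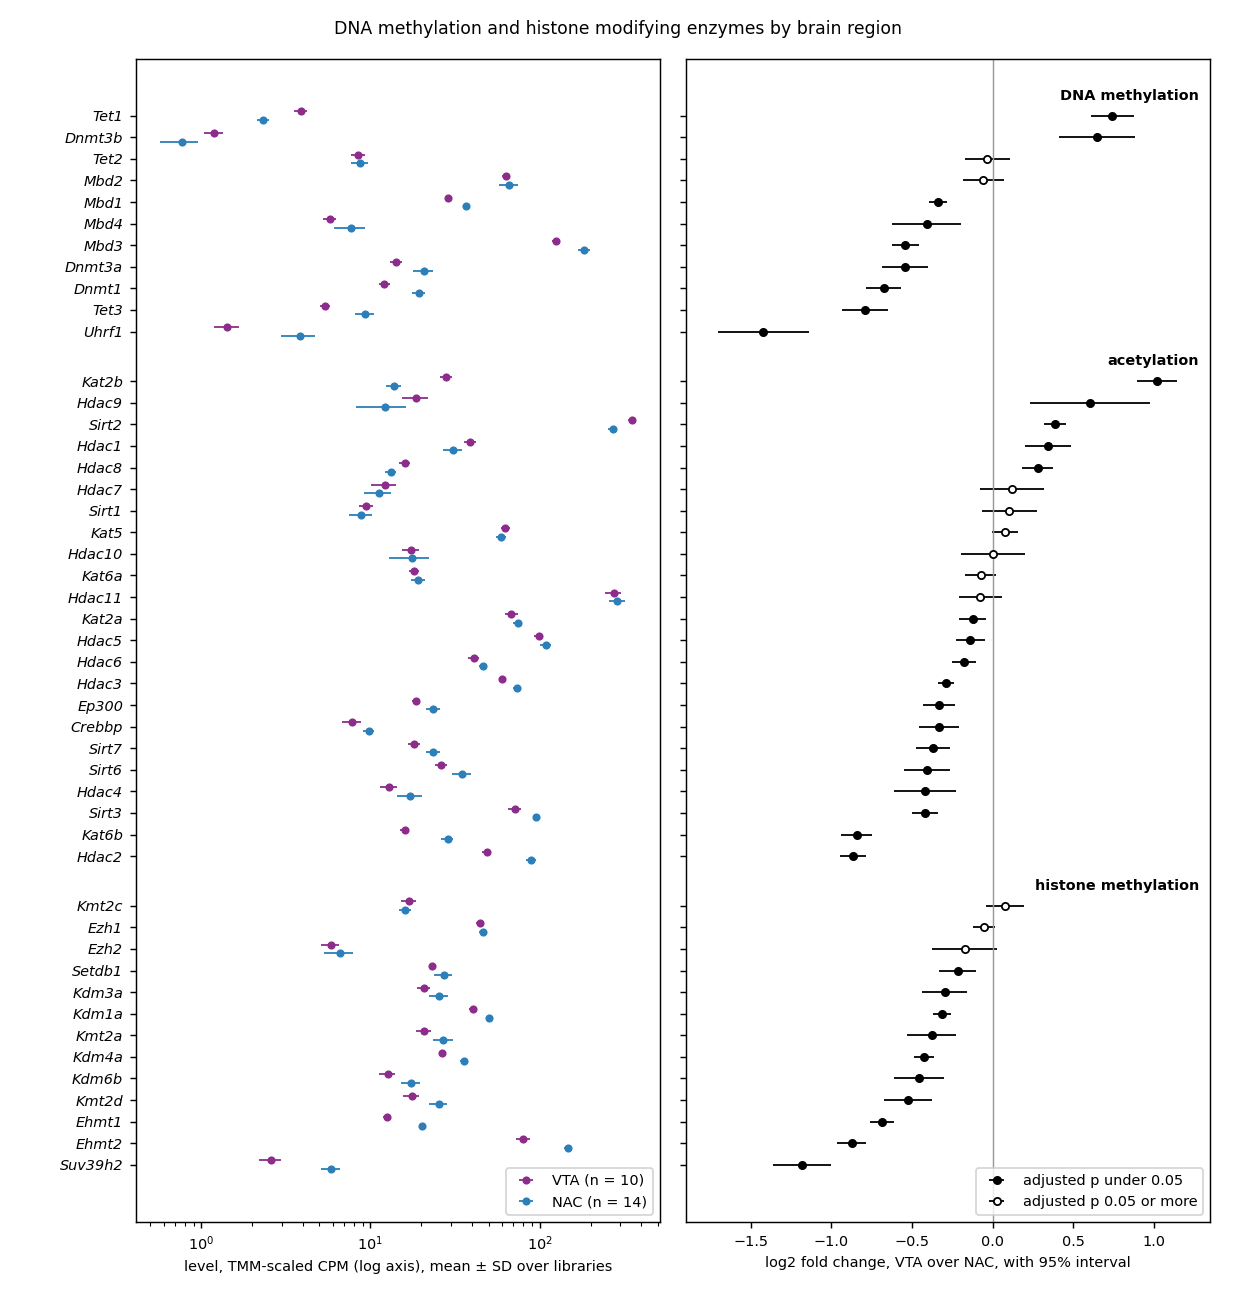
Levels of the 47 enzymes by region (left, TMM-scaled CPM on a log axis, mean ± SD over 10 VTA and 14 NAC libraries) and the log2 fold change of VTA over NAC with its 95% interval (right; filled points have an adjusted p under 0.05). Within each class genes run from the highest to the lowest fold change, and most points lie left of 0, with Kat2b farthest right at 1.02 and Uhrf1 farthest left at −1.42.

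Of the 11 DNA methylation genes, 2 were higher and 7 lower in VTA. Tet1 had 3.22, 3.92 and 4.39 CPM (lowest, median and highest of 10) in VTA and 2.00, 2.34 and 2.76 CPM (of 14) in NAC, with a log2 fold change of 0.74 (SE 0.06, adjusted p = 6.2e-10). Dnmt3b had 1.02, 1.14 and 1.40 CPM in VTA and 0.547, 0.688 and 1.13 CPM in NAC (0.65, SE 0.11, adjusted p = 2.57e-05). For Tet1 all VTA libraries lay above all NAC libraries, while for Dnmt3b the ranges overlapped. Uhrf1, which recognises half-methylated DNA and recruits Dnmt1 to it, had 1.13, 1.33 and 1.96 CPM in VTA and 2.48, 3.95 and 5.17 CPM in NAC (−1.42, SE 0.14, adjusted p = 2.93e-09). Tet3 had 4.90, 5.37 and 6.05 CPM in VTA and 7.67, 9.14 and 11.6 CPM in NAC (−0.79, SE 0.07, adjusted p = 6.34e-10). Dnmt1 had 10.6, 11.8 and 13.6 CPM in VTA and 15.3, 19.8 and 21.8 CPM in NAC (−0.67, SE 0.05, adjusted p = 8.91e-11). In these 3 genes every VTA library lay below every NAC library. The TET enzymes thus took different directions, with Tet1 higher, Tet3 lower and Tet2 at −0.03 without a call. Also lower in VTA were Dnmt3a (−0.54), the NuRD subunit Mbd3 (−0.54), the reader Mbd1 (−0.34) and the thymine glycosylase Mbd4 (−0.41). Mbd2 stood at −0.06 without a call.

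Of the 23 acetylation genes, 5 were higher and 12 lower in VTA, where 34.3% of all genes were higher and 34.7% lower. This lean depended on scaling. Upper-quartile scaling called 8 of the 23 higher and 9 lower, with a median log2 fold change of −0.0018 in place of −0.12. Under both scalings 15 of the 23 lay below the median of all genes. The acetyltransferase Kat2b, also named PCAF, had 22.6, 28.5 and 31.1 CPM in VTA and 10.9, 13.7 and 16.6 CPM in NAC, a log2 fold change of 1.02 (SE 0.06, adjusted p = 6.56e-13). Sirt2 had 329, 346 and 388 CPM in VTA and 248, 272 and 292 CPM in NAC (0.39, SE 0.03, adjusted p = 2.12e-10). For both genes the regions did not overlap. Hdac9 had 12.2, 19.1 and 22.7 CPM in VTA and 4.38, 12.9 and 18.3 CPM in NAC (0.60, SE 0.18, adjusted p = 0.00501). Its ranges overlapped, and without the 4 female-typical VTA libraries its log2 fold change was 0.47 with an adjusted p of 0.0988 by edgeR. Hdac2, a class I deacetylase of several repressor complexes, had 45.2, 48.0 and 53.4 CPM in VTA and 79.1, 87.3 and 103 CPM in NAC (−0.87, SE 0.04, adjusted p = 4.53e-15). Its partner Hdac1 went the other way, with a log2 fold change of 0.34. The acetyltransferase Kat6b had 14.1, 15.7 and 17.2 CPM in VTA and 23.9, 28.4 and 32.9 CPM in NAC (−0.84, SE 0.05, adjusted p = 1.93e-13). Sirt3, the main mitochondrial deacetylase, had a mean of 71.3 ± 6.31 CPM in VTA, with a highest library of 82.5 CPM, and 95.5 ± 3.69 CPM in NAC (SD, n = 10 and 14), with a lowest library of 89.2 CPM (−0.42, SE 0.04, adjusted p = 1.86e-09). For Hdac2, Kat6b and Sirt3 every VTA library lay below every NAC library. Hdac8 was also higher in VTA (0.28), and Hdac4 (−0.42), Sirt6 (−0.41), Sirt7 (−0.37), the paralogous coactivators Crebbp and Ep300 (both −0.33), Hdac3 (−0.29), Hdac6 (−0.18), Hdac5 (−0.14) and Kat2a (−0.12) were lower. Hdac7, Hdac10, Hdac11, Sirt1, Kat5 and Kat6a lay between −0.08 and 0.12 and were not called.

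Of the 13 histone methylation genes, 10 were lower in VTA and none was called higher. Suv39h2, a methyltransferase of heterochromatin, had 2.09, 2.57 and 3.20 CPM in VTA and 4.80, 5.72 and 7.09 CPM in NAC, a log2 fold change of −1.18 (SE 0.09, adjusted p = 3.53e-11). Ehmt2, which encodes G9a, had 70.9, 79.7 and 93.9 CPM in VTA and 137, 147 and 162 CPM in NAC (−0.87, SE 0.04, adjusted p = 3.65e-14). Ehmt1, which encodes its partner GLP, had 11.4, 12.7 and 13.5 CPM in VTA and 18.0, 20.2 and 22.2 CPM in NAC (−0.68, SE 0.04, adjusted p = 8.92e-14). Both members of the G9a and GLP pair were thus lower in every VTA library than in any NAC library, as was Suv39h2. The methyltransferases Kmt2d (−0.53), Kmt2a (−0.38) and Setdb1 (−0.22) and the 4 demethylases Kdm6b (−0.46), Kdm4a (−0.42), Kdm1a (−0.31) and Kdm3a (−0.30) were also lower. The 4 demethylases kept that direction and their calls under RLE, upper-quartile and total-count scaling, whereas upper-quartile scaling called 2 other genes of this class higher. Kmt2c (0.08) and the catalytic subunits of the Polycomb complex PRC2, Ezh1 (−0.05) and Ezh2 (−0.17), were not called.

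The promoters of the enzymes were rich in CpG, the substrate of the DNA methyltransferases. RefSeq (assembly GRCr8) gave a promoter for 39 of the 47 genes, and the 250 bases before the start held a median of 17 CpG, from 1 in Tet1 to 45 in Kmt2c, against a median of 5 over 33469 promoters. A GC box (GGGCGG on either strand), the site of Sp family factors, occurred in 24 of the 39 (61.5%) and in 30.5% of all promoters. CCAAT occurred in 43.6% of the 39 and in 34.0% of all, TATAAA in 2.56% and in 12.9%, and the full cAMP response element TGACGTCA in 2.56% (Suv39h2 alone) and in 1.59%, each on either strand. A GC box contains a CpG, so these counts are not independent, and a match is a description only. The promoters compared were not limited to genes expressed in these libraries, so the shares do not set these enzymes apart from other expressed genes. Shown are the promoters of Kat2b, the enzyme with the highest fold of VTA over NAC, of Ehmt2 and Suv39h2, the histone methylation genes with the lowest folds, and of Hdac3, which had the smallest p of the sire comparison in NAC. Each is the 250 bases before the start, 5′ to 3′, with CpG in capitals. Kat2b lies at chr9:6798895-6799144 on the plus strand, Ehmt2 at chr20:3940711-3940960 on the minus strand, Suv39h2 at chr17:79665217-79665466 on the plus strand and Hdac3 at chr18:30041026-30041275 on the minus strand.
Kat2b: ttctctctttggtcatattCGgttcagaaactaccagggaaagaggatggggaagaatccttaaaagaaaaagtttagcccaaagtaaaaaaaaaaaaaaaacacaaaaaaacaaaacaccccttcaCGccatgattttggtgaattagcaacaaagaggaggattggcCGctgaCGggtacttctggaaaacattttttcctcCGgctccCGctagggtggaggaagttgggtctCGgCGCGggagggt
Ehmt2: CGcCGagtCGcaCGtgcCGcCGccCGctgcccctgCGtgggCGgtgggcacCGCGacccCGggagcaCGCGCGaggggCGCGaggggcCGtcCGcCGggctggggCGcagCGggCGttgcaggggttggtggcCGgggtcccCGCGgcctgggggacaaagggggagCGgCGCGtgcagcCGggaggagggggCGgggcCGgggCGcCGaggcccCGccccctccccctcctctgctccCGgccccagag
Suv39h2: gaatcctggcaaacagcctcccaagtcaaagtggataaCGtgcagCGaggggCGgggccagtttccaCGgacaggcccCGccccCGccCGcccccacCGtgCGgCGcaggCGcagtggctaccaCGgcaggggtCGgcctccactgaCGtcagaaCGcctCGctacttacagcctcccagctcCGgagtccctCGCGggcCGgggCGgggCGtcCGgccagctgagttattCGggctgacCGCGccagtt
Hdac3: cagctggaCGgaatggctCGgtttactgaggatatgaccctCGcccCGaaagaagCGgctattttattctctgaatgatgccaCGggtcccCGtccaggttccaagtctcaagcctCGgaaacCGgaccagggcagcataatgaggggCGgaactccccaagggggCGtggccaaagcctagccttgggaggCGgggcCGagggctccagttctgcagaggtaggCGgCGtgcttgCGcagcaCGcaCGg
Kat2b, higher in VTA, held 9 CpG, no GC box and a CCAAT. Ehmt2 held 36 CpG and 4 GC boxes, and Suv39h2 26 CpG and 5 GC boxes. Hdac3 held 18 CpG and 1 GC box. DNA methylation itself was not measured, so nothing is shown about the state of these CpG.

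The next comparison set MOR-sired against SAL-sired VTA. No enzyme passed the test there, and the differences were small. The log2 fold changes, MOR-sired over SAL-sired, ran from −0.18 for Crebbp to 0.15 for Sirt7, with a median of 0.0034 over the 47 and −0.0065 over all genes. edgeR's quasi-likelihood test called 0 of the 47 (smallest adjusted p = 0.928), as it called 0% of 19923 genes. At an unadjusted p under 0.05 it gave 2 of the 47, against 5.31% of all genes, and 26 of the 47 were positive, against 47.4%. By class, 4 of 11 DNA methylation, 16 of 23 acetylation and 6 of 13 histone methylation genes were positive. DESeq2 called 0 of the 47 as well. No enzyme had groups without overlap, against 0.908% of all genes. Under total-count scaling, which moves the median of all genes to −0.09, 5 of the 47 were positive.

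Of the 5 sirtuins, Sirt2 and Sirt7 gave the smallest p in VTA. The others, Sirt1, Sirt3 and Sirt6, had log2 fold changes of 0.0034, −0.05 and 0.07. Sirt2 had 370, 385, 344, 394 and 367 CPM in MOR-sired VTA 1 to 5 and 336, 351, 345, 352 and 343 CPM in SAL-sired VTA 1 to 5, a log2 fold change of 0.11 (SE 0.04, adjusted p = 0.928 by edgeR). In MOR-sired VTA 4 of 5 libraries lay above all SAL-sired ones, and replicate 3 lay among them. The oligodendrocyte score, the mean log2 CPM of the 7 markers, ran from 10.36 to 10.80 in MOR-sired and from 10.34 to 10.55 in SAL-sired VTA. Its part in the Sirt2 values was not tested. Sirt7, a sirtuin of the nucleolus, had 18.4, 20.5, 20.1, 19.5 and 18.8 CPM in MOR-sired and 15.4, 17.9, 18.3, 19.4 and 16.5 CPM in SAL-sired VTA (0.15, SE 0.07, adjusted p = 0.93 by edgeR). All 5 MOR-sired libraries lay above the SAL-sired median, and the groups overlapped at the upper end of the SAL-sired range. Dnmt3a had 13.4, 14.4, 14.9, 11.8 and 14.3 CPM in MOR-sired and 14.6, 14.8, 16.3, 15.2 and 14.2 CPM in SAL-sired VTA (−0.12, SE 0.07, adjusted p = 0.958). Crebbp, the CREB binding acetyltransferase, had 6.74, 6.94, 8.09, 6.19 and 9.04 CPM in MOR-sired and 8.64, 8.58, 8.61, 7.49 and 8.52 CPM in SAL-sired VTA (−0.18, SE 0.11, adjusted p = 0.961). In both genes 1 of the 5 MOR-sired libraries lay above the SAL-sired median. Kat5, the catalytic subunit of the TIP60 complex, had 65.1, 65.3, 63.6, 66.7 and 66.4 CPM in MOR-sired and 56.6, 56.9, 64.5, 66.2 and 64.3 CPM in SAL-sired VTA (0.08, SE 0.05, adjusted p = 0.963). Hdac2 had 51.6, 49.3, 46.3, 45.9 and 46.7 CPM in MOR-sired and 54.0, 54.6, 49.2, 48.0 and 48.5 CPM in SAL-sired VTA (−0.08, SE 0.05, adjusted p = 0.963). For Kat5 SAL-sired VTA 1 and 2 were low. For Hdac2 the same pair was high, and MOR-sired VTA 1 and 2 were likewise the highest of their group.

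**Figure D2:**
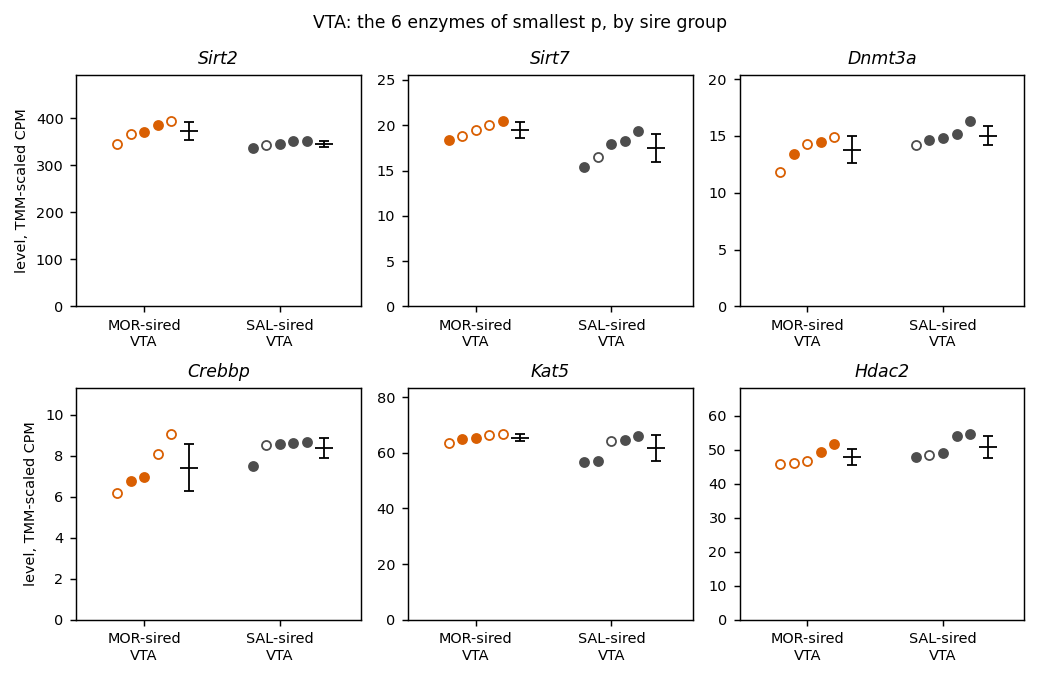
Levels (TMM-scaled CPM) of the 6 enzymes of smallest p in VTA, 1 point per library (5 MOR-sired, 5 SAL-sired), with mean ± SD beside each group; open points are the 4 female-typical libraries. The groups overlap in each panel, and the Sirt2 means of 372 CPM in MOR-sired and 346 CPM in SAL-sired VTA differ by a fold of 1.08.

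These VTA values stand beside further differences between the libraries, whose part in them was not tested. The 4 choroid plexus markers summed to 3.77 to 7.77 CPM in MOR-sired and 6.22 to 47.4 CPM in SAL-sired VTA. The serotonin markers were higher in all MOR-sired than in any SAL-sired library, as given above. Their score ran from 4.19 to 5.83 in MOR-sired and from −1.63 to 4.15 in SAL-sired VTA. A fit with that score as a covariate therefore cannot separate it from the sire groups, and its values are a description only. With the serotonin score as a covariate, an alternative chosen after seeing the data, the log2 fold changes were 0.09 for Sirt2, 0.25 for Sirt7, −0.02 for Dnmt3a, −0.17 for Crebbp, 0.16 for Kat5 and −0.16 for Hdac2, and none was called. Without the 4 female-typical libraries they were 0.12 for Sirt2, 0.13 for Sirt7, −0.13 for Dnmt3a, −0.28 for Crebbp, 0.09 for Kat5 and −0.03 for Hdac2, again with 0 enzymes called by edgeR. That fit has only MOR-sired VTA 1 and 2 against SAL-sired VTA 1 to 4. Both of these MOR-sired libraries, and SAL-sired VTA 1 and 2, held 23.6 to 27.3 M estimated counts. The other VTA libraries, among them all 4 female-typical ones, held 36.7 to 43.5 M. The part of total counts in these values was not tested. The X-linked Hdac6 had 40.6, 41.5 and 44.5 CPM (lowest, median and highest) in the 4 female-typical and 38.0, 39.7 and 47.5 CPM in the 6 male-typical VTA libraries. Hdac8, also X-linked, had 14.1, 15.4 and 17.6 CPM in the female-typical and 15.2, 17.1 and 17.7 CPM in the male-typical libraries, so both overlapped.

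The same question in NAC gave no call by edgeR either, although Hdac3 stood apart in its TMM-scaled levels. Hdac3, the catalytic deacetylase of the nuclear receptor corepressor complexes, had 72.3, 76.6 and 81.3 CPM (lowest, median and highest of 7) in MOR-sired NAC and 67.2, 69.3 and 70.8 CPM in SAL-sired NAC. The lowest MOR-sired library exceeded the highest SAL-sired one. Hdac3 was the only 1 of the 47 enzymes whose sire groups did not overlap in NAC, against 0.0659% of all genes. Its means were 76.3 ± 3.27 CPM in MOR-sired and 69.4 ± 1.29 CPM in SAL-sired NAC (SD, n = 7 each), a log2 fold change of 0.14 (SE 0.03), or 1.10-fold (95% interval 1.05 to 1.15). Over all genes in NAC DESeq2 called 74 and edgeR 0. The adjusted p of Hdac3 was 0.56 by edgeR's quasi-likelihood test and 0.0142 by DESeq2, which called it. Over all alternatives its adjusted p ran from 0.0142 to 0.986, and its log2 fold change from 0.12 to 0.15. Its correlation with the striatal score over the 14 NAC libraries did not pass (r = −0.109, adjusted permutation p = 0.8; rho = −0.0725, adjusted permutation p = 0.871; r = 0.216 without MOR-sired NAC 2 and 7). The astrocyte score, the mean log2 CPM of 6 markers, ran from 7.17 to 7.48 in MOR-sired and from 7.40 to 7.50 in SAL-sired NAC. In this score 5 of 7 MOR-sired libraries lay below every SAL-sired one. The 6 markers did not move alike. Medians in MOR-sired and SAL-sired NAC were 122 and 147 CPM for Aqp4, 277 and 348 CPM for Gfap and 547 and 607 CPM for Slc1a2. They were 302 and 306 CPM for Slc1a3, 13.4 and 13.6 CPM for Aldh1l1 and 213 and 205 CPM for Gja1. The part of the astrocyte score in the NAC values was not tested.

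Across the 47, edgeR's test called 0 (smallest adjusted p = 0.56), as it called 0% of 18220 genes in NAC. At an unadjusted p under 0.05 it gave 6 of the 47, against 6.18% of all genes: Hdac3, Hdac10, Dnmt3b, Kat2a and Hdac7 with positive and Kat6a with negative log2 fold changes. Of the 47, 28 were positive, against 49.5% of all genes, and the median was 0.01 over the 47 and −0.0011 over all genes. That majority was not stable: 21 of the 47 were positive under DESeq2 and without the filter on low values, and 22 without MOR-sired NAC 4, with medians of −0.0042, −0.0068 and −0.0074. By class, 6 of 11 DNA methylation, 14 of 23 acetylation and 8 of 13 histone methylation genes were positive.

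Hdac10, a class IIb deacetylase that acts on polyamines, had the largest log2 fold change of the 47 in NAC. It had 13.9, 19.7 and 25.3 CPM in MOR-sired and 12.2, 14.4 and 17.0 CPM in SAL-sired NAC (0.50, SE 0.14, adjusted p = 0.56 by edgeR), and 6 of 7 MOR-sired libraries lay above the SAL-sired median. Dnmt3b, near 1 CPM, had 0.645, 0.917 and 1.12 CPM in MOR-sired and 0.539, 0.600 and 0.811 CPM in SAL-sired NAC (0.43, SE 0.17, adjusted p = 0.712 by edgeR). Kat2a, the acetyltransferase GCN5, had 72.1, 76.6 and 79.1 CPM in MOR-sired and 64.2, 69.2 and 78.6 CPM in SAL-sired NAC (0.10, SE 0.05, adjusted p = 0.777 by edgeR). For Dnmt3b and Kat2a all 7 MOR-sired libraries lay above the SAL-sired median, but the ranges overlapped. Hdac7, a class IIa deacetylase, had 9.47, 12.2 and 14.7 CPM in MOR-sired and 7.90, 10.2 and 11.8 CPM in SAL-sired NAC (0.26, SE 0.12, adjusted p = 0.777 by edgeR). Kat6a, also named MOZ, had 16.2, 17.5 and 20.1 CPM in MOR-sired and 19.0, 19.4 and 22.1 CPM in SAL-sired NAC (−0.16, SE 0.06, adjusted p = 0.69 by edgeR), with 1 of 7 MOR-sired libraries above the SAL-sired median. With the striatal score as a covariate the log2 fold changes were 0.14 for Hdac3, 0.56 for Hdac10, 0.36 for Dnmt3b, 0.11 for Kat2a, 0.18 for Hdac7 and −0.16 for Kat6a, and none was called (smallest adjusted p = 0.156).

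**Figure D3:**
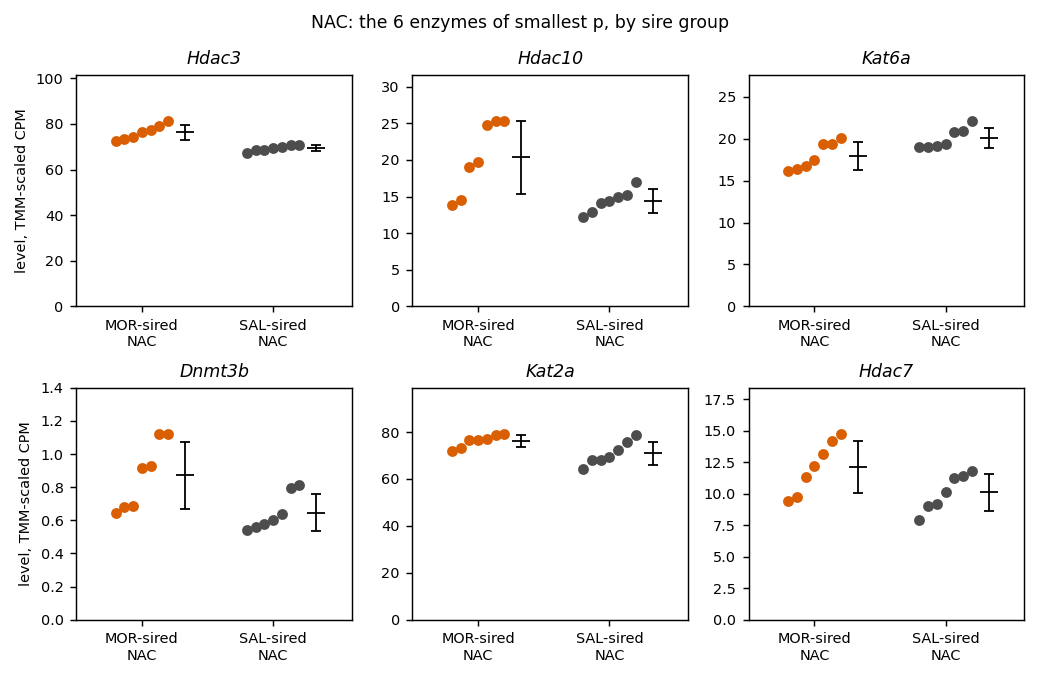
Levels (TMM-scaled CPM) of the 6 enzymes of smallest p in NAC, 1 point per library (7 MOR-sired, 7 SAL-sired), with mean ± SD beside each group. In the Hdac3 panel the lowest MOR-sired library (72.3 CPM) lies above the highest SAL-sired one (70.8 CPM), and in the other panels the groups overlap.

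Whether the sire effect differed between the regions was tested over all 24 libraries, as the VTA effect minus the NAC effect. No enzyme passed. edgeR's quasi-likelihood test called 0 of the 47 (smallest adjusted p = 0.861), as it called 0% of 20603 genes, and 3 of the 47 had an unadjusted p under 0.05, against 4.78% of all genes. The 3 were Hdac3, Dnmt3b and Hdac10. For Hdac3 the log2 fold changes were −0.02 in VTA and 0.14 in NAC, a difference of −0.15 (SE 0.05, adjusted p = 0.861 by edgeR). Dnmt3b had −0.09 in VTA and 0.43 in NAC, a difference of −0.51 (SE 0.23), and Hdac10 had 0.08 in VTA and 0.50 in NAC, a difference of −0.41 (SE 0.19), both with an adjusted p of 1.00 by edgeR. Of the 47 differences, 28 were positive, against 49.3% of all genes, and 7 were positive under total-count scaling, which moves the median of all genes to −0.11.

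**Figure D4:**
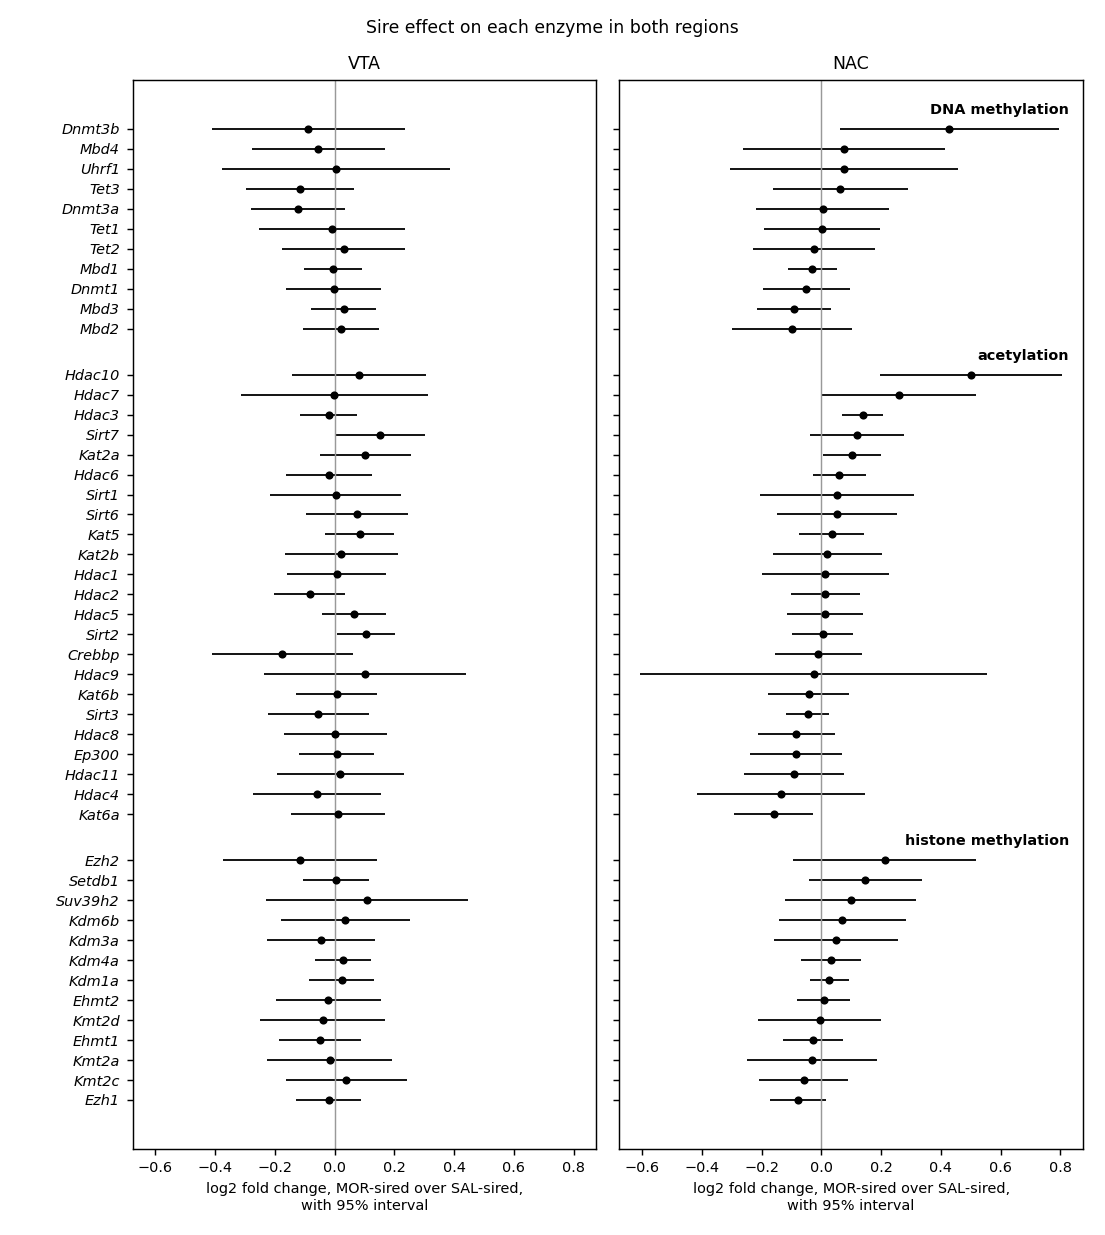
Log2 fold change of MOR-sired over SAL-sired with its 95% interval for each of the 47 enzymes, in VTA (left, 5 against 5 libraries) and NAC (right, 7 against 7 libraries), ordered within class by the NAC value. Points scatter around 0 in both regions, from −0.18 to 0.15 in VTA and from −0.16 to 0.50 in NAC, and no enzyme passed the adjusted threshold in either.

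Cell composition was set beside the enzymes through marker scores, the mean log2 CPM of a marker list in each library. Each enzyme was correlated with the striatal and oligodendrocyte scores in NAC and with the dopamine neuron and oligodendrocyte scores in VTA, with p from 100000 permutations adjusted over the 94 relations of a region. The same permutation test was then run on all genes kept, leaving out the markers of the score. In VTA 1 of the 47 enzymes (2.13%) passed for each score. Its p cutoff was met by 0.362% of all genes for the dopamine neuron score and 0.0402% for the oligodendrocyte score. With adjustment over all genes, Hdac9 passed for the dopamine neuron score (adjusted permutation p = 0.00603), as did 0.864% of all genes, and no enzyme passed for the oligodendrocyte score, as 0% of all genes did. Hdac9 rose with the dopamine neuron score (r = 0.969, permutation p = 1e-05, adjusted p = 0.00094; rho = 0.976, permutation p = 3e-05, adjusted p = 0.00282; n = 10). Leaving out SAL-sired VTA 3 and 4, the libraries farthest from the median score, gave r = 0.943. Hdac4, another class IIa deacetylase, fell as the oligodendrocyte score rose (r = −0.925, permutation p = 5e-05, adjusted p = 0.00235; rho = −0.915, permutation p = 0.00049, adjusted p = 0.023). Leaving out MOR-sired VTA 1 and 2 gave r = −0.905. The second enzyme of each score did not pass: Tet3 had r = −0.758 with the dopamine neuron score and −0.324 without the farthest libraries, and Kmt2a had r = −0.751 with the oligodendrocyte score and −0.28 without them, both with an adjusted permutation p of 0.256. The value 1e-05 is the smallest these permutations can give, and the VTA groups of 5 were too small for values within a sire group.

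In NAC 13 of the 47 enzymes (27.7%) passed for the striatal score, 8 of them rising and 5 falling with it. The same p cutoff was met by 24.6% of all genes, 12.7% rising and 11.9% falling, so the share of enzymes was near that of all genes. With adjustment over all genes 17 of the 47 passed, as did 29.4% of all genes. The values below therefore describe single enzymes. Mbd2, a methyl-CpG reader of the NuRD complex, rose with it (r = 0.912, permutation p = 1e-05, adjusted p = 0.00047; rho = 0.943, permutation p = 1e-05, adjusted p = 0.00094; n = 14). Its r was 0.913 within MOR-sired and 0.982 within SAL-sired NAC, and 0.931 without MOR-sired NAC 2 and 7. Hdac11 rose with it too (r = 0.911, permutation p = 1e-05, adjusted p = 0.00047; rho = 0.877, permutation p = 9e-05, adjusted p = 0.00282), with r = 0.916 within MOR-sired and 0.923 within SAL-sired NAC, and 0.863 without the same pair. The others that rose with the score were Dnmt3a, Tet2, Kdm3a, Kmt2a, Sirt1 and Ep300, and those that fell were Sirt6, Hdac9, Kat5, Hdac1 and Hdac7, with r from −0.865 to 0.834. Of these Hdac7 passed by r (−0.684) but not by rho (−0.657, adjusted permutation p = 0.0682), and its r was −0.517 without MOR-sired NAC 2 and 7. Hdac9, named after its values were seen, fell as the striatal score rose, with r = −0.834 (rho = −0.921) over the 14 libraries, −0.894 within MOR-sired and −0.964 within SAL-sired NAC, so the enzyme with the widest spread in NAC followed the marker score in both sire groups. Its lowest, median and highest levels were 4.38, 13.1 and 18.0 CPM in MOR-sired and 7.71, 12.3 and 16.0 CPM in SAL-sired NAC. For the oligodendrocyte score in NAC 2 of the 47 enzymes (4.26%) passed, against 2.2% of all genes at the same cutoff, and none passed with adjustment over all genes (smallest adjusted permutation p = 0.238), where 0.0824% of all genes did. Sirt2 had r = 0.762 (adjusted permutation p = 0.0199; rho = 0.662, adjusted permutation p = 0.0682), 0.864 within MOR-sired and 0.71 within SAL-sired NAC, and 0.666 without SAL-sired NAC 5 and 6. Hdac7 had r = 0.728 (adjusted permutation p = 0.0301; rho = 0.719, adjusted permutation p = 0.0369), 0.923 within MOR-sired and 0.609 within SAL-sired NAC, and 0.695 without the same pair. Cortical glutamatergic markers also varied in NAC, from 139 to 1640 CPM in MOR-sired and 702 to 1517 CPM in SAL-sired libraries, and the part of any single cell type in these relations was not tested.

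**Figure D5:**
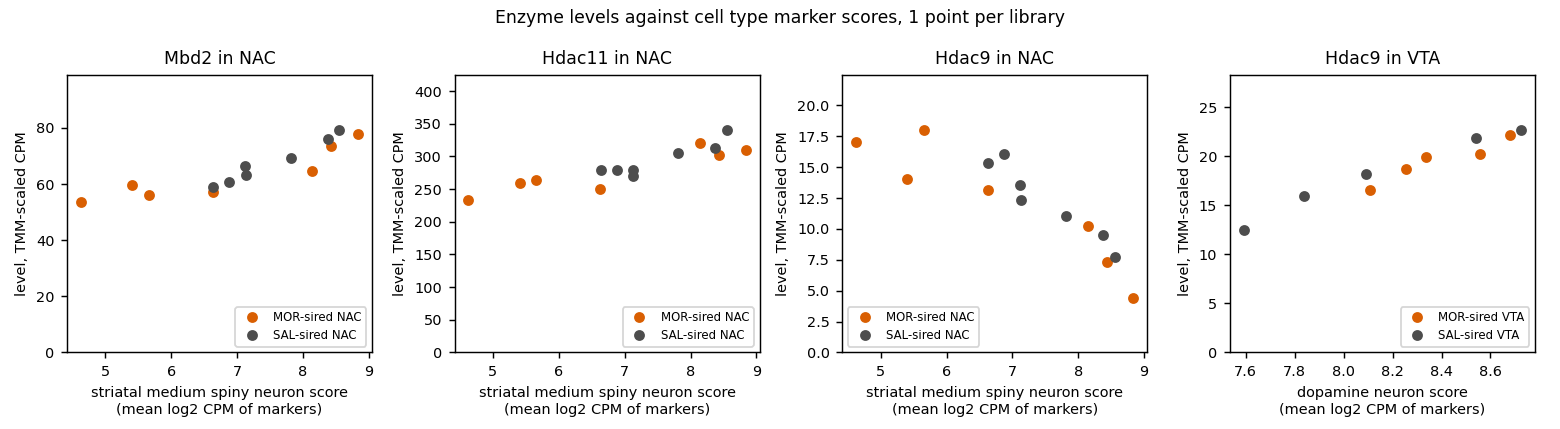
Levels of Mbd2, Hdac11 and Hdac9 against the striatal score in NAC (14 libraries) and of Hdac9 against the dopamine neuron score in VTA (10 libraries), 1 point per library, coloured by sire group. Mbd2 and Hdac11 rise with the striatal score (r = 0.912 and 0.911), Hdac9 falls with it in NAC (r = −0.834) and rises with the dopamine neuron score in VTA (r = 0.969).

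Partners and related enzymes outside the 47 were counted in 3 further lists. For DNA methylation 14 of 17 genes were called between regions, 4 higher and 10 lower in VTA. Parp1, a poly(ADP-ribose) polymerase, had a mean of 35.7 ± 2.08 CPM in VTA and 58.1 ± 2.18 CPM in NAC (SD, n = 10 and 14), and Tdg, the glycosylase that removes oxidised methylcytosine, 16.0 ± 1.04 CPM in VTA and 27.2 ± 2.01 CPM in NAC. For acetylation 34 of 39 were called, 6 higher and 28 lower. Chd3, a NuRD helicase, had a mean of 104 ± 4.97 CPM in VTA and 243 ± 26.1 CPM in NAC, and Mef2d, a transcription factor bound by class IIa deacetylases, 51.9 ± 4.68 CPM in VTA and 149 ± 19.1 CPM in NAC. For histone methylation 38 of 49 were called, 8 higher and 30 lower. The arginine methyltransferase Carm1 had a mean of 33.4 ± 3.19 CPM in VTA and 64.1 ± 3.49 CPM in NAC, and Prdm2 37.6 ± 1.11 CPM in VTA and 55.9 ± 2.92 CPM in NAC. The medians of the log2 fold change were −0.15, −0.35 and −0.19 for the DNA methylation, acetylation and histone methylation lists. Over all genes tested, 69% were called, 34.3% higher and 34.7% lower, and the median was 0.02. The 3 shares called (14 of 17, 34 of 39 and 38 of 49) stand beside that 69%, and in each list more genes were lower than higher in VTA.

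Neither sire comparison nor the difference between regions called any of these related genes by edgeR. At an unadjusted p under 0.05, each of the 3 lists had 1 gene in VTA, where 5.31% of all genes did. In NAC 1 of 17 DNA methylation, 1 of 39 acetylation and 4 of 49 histone methylation partners had such a p, where 6.18% of all genes did. In VTA the smallest p were those of Gadd45g, of the Gadd45 family linked to active demethylation, with 12.5 ± 1.06 CPM in MOR-sired and 15.9 ± 2.27 CPM in SAL-sired VTA (SD, n = 5 each; log2 fold change −0.36, adjusted p = 0.793 by edgeR), and of the Polycomb gene Ring1 (0.17) and the acetyl-CoA synthetase Acss2 (−0.16). In NAC they were those of Kmt5c, a histone methyltransferase, with 20.3 ± 4.18 CPM in MOR-sired and 15.3 ± 1.61 CPM in SAL-sired NAC (SD, n = 7 each; 0.40, adjusted p = 0.562 by edgeR), of the corepressor subunit Gps2 (0.17) and of Setdb2 (0.24).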

How the data were processed

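RNA was sequenced from 14 NAC and 10 VTA libraries. The authors deposited estimated counts per gene, 1 table per region, TPM scaled to each library's total, as the files' names say. Per the submitters' processing notes Trim Galore, kallisto and DESeq2 were used, without versions; no build or annotation is stated there. Estimated counts were rounded. Genes were kept by filterByExpr and tested with edgeR 4.0.16 (glmQLFit, glmQLFTest, TMM; R 4.3.3), two-sided, with Benjamini-Hochberg adjustment over all genes kept (18220 in NAC, 19923 in VTA, 20603 together); called means an adjusted p under 0.05. limma 3.58.1 and DESeq2 1.42.0 were alternatives. Scaled values allow no counting interval. Scores are mean log2 CPM (prior count 2). The enzymes, lists and alternatives were chosen with earlier results of these data known. Named were the 6 enzymes of smallest p per sire comparison, the 3 for the difference between regions, up to 3 per class and direction between regions, 2 per score and 2 per related list. The share of all genes following each score was added after the results were seen. The edgeR comparisons and the correlation test were checked on simulated data. The folds planted for edgeR were larger than any sire fold of the enzymes, so that check does not cover folds of this size. Promoters came from RefSeq (GRCr8).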

Additional observations from a re-analysis of the deposited data

Results flagged for a closer look

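Of 188 groups of an enzyme's levels (47 enzymes in 4 groups), 9 (4.79%) held a library far from the others of its group, and chance flags about 1 in 20. In NAC these were Dnmt3a (25.8 CPM), Kat6b (32.3 CPM) and Kmt2c (18.2 CPM), all high in SAL-sired NAC 3, and Mbd4, high in SAL-sired NAC 7 (9.65 CPM). Hdac5 was low (88.7 CPM) and Sirt1 high (12.5 CPM) in MOR-sired NAC 4, and Kmt2c was low in MOR-sired NAC 7 (12.2 CPM). In VTA Sirt6 was high in MOR-sired VTA 5 (30.0 CPM) and Crebbp low in SAL-sired VTA 4 (7.49 CPM). MOR-sired NAC 4 had the highest and SAL-sired NAC 3 the second highest striatal score of the 14 NAC libraries, and MOR-sired NAC 7 the second lowest; the part of the score in these values was not tested.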

How the results depend on the processing

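The count of enzymes called stayed at 0 in VTA and in the difference between regions under all alternatives run, and in NAC under all but DESeq2, which called 1 (Hdac3). Counts over all genes moved: DESeq2 called 74 genes in NAC, 121 in VTA and 174 for the difference between regions, limma-voom with sample quality weights called 52 in NAC, and the fit without the 4 female-typical VTA libraries called 7 genes for the difference. Under total-count scaling Kat5 in VTA turned to −0.00025. The enzymes with an unadjusted p under 0.05 numbered 3 to 8 over all alternatives in NAC (3 under DESeq2 and with a replicate block, 8 with the striatal score as a covariate, and 3 without MOR-sired NAC 2 or 5 or SAL-sired NAC 7). In VTA they were 0 without SAL-sired 1 or 5 or MOR-sired 2 or 4, 1 without SAL-sired 2 or 3 or MOR-sired 3, and at most 3. For the difference between regions they were 1 to 4, with 1 without SAL-sired NAC 2 or 3, MOR-sired NAC 5, MOR-sired VTA 1 or SAL-sired VTA 3 or 4. Replicate numbers showed no pairing by correlation, which cannot tell whether same-numbered libraries share a litter or handling. Correlations of same-numbered deviations ran from −0.260 to 0.0964 in NAC and from −0.128 to 0.132 in VTA. In NAC 0 of 7 and in VTA 1 of 5 numbers were best matched to their own. With the replicate block 0 enzymes were called in NAC and 0 in VTA, and 1 in VTA had an unadjusted p under 0.05. The causes were not tested.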
